A study of Homo sapiens with 39 samples.

Results

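The genes described here are 58 genes of DNA replication and of the passage from G1 into S phase. They were chosen by name from a list of licensing, polymerase, nucleotide supply and E2F genes. The rule itself uses no measured value, but the members were chosen with earlier results of these data known. Each of the 58 symbols matched 1 Ensembl identifier among the 63187 genes of the count table. The 58 were grouped by role, 13 under origin licensing (with MCM8 and MCM10), 8 under helicase activation and 9 under polymerases and primase. A further 7 were under the sliding clamp and its loaders (with DTL), 5 under nucleotide supply and 8 under chromatin duplication (with USP1). The last 8, under E2F and cyclin E, include CDK2 and CDC25A. These groups are broad, and not every gene has the function its group is named for. All 58 passed the filter on low counts in both experiments, and the lowest count of any of them in any library was 106.

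Replication starts from origins that are licensed in G1, when the origin recognition complex, CDC6 and CDT1 load the MCM helicase onto DNA. On entry into S phase, the kinases CDC7-DBF4 and CDK2-cyclin E turn loaded MCM into the active helicase with CDC45 and GINS, and polymerases alpha, delta and epsilon copy the DNA with the clamp PCNA. Most of these genes are transcribed by E2F factors once the RB proteins release them, and the CDK inhibitor p21, encoded by CDKN1A, acts through RB family proteins to keep them silent.

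RNA was measured by stranded mRNA sequencing in C4-2B, a castration-resistant prostate cancer line derived from LNCaP, which was grown in RPMI medium with 10% serum in every group. The study asked how these cells respond to PARP inhibitors (PARPi), to androgen receptor pathway inhibitors (ARPi) and to both. In the panel (21 libraries), cells were exposed for 5 days to DMSO vehicle, abiraterone acetate at 5 µM (Abi), enzalutamide at 20 µM (Enz), olaparib at 1 µM (Ola), talazoparib at 10 nM (Tala), Abi with Ola, or Enz with Tala. In the time course (18 libraries), cells were exposed to DMSO or to olaparib at 1 or 5 µM for 1 or 5 days. Each of the 13 groups held 3 libraries. All libraries came from 1 cell line, and the labels do not say whether replicates were separate cultures, so p-values measure the spread between these libraries, which may be technical.

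Total counts ran from 26932205 to 49833473 a library (median 37223200). Levels are CPM, counts divided by library size, with the library size scaled by TMM to correct for differences in composition. The luminal prostate genes KLK3 and HOXB13 were expressed in all 39 libraries, while KRT5, TP63, COL1A2, DCN, LUM, CD3E and PECAM1 had at most 4 counts in any. Other markers on those lists were low, with COL1A1 between 10.5 and 22.1 CPM, VWF between 7.48 and 22.5, and CD68 between 2.47 and 29.6. The basal marker KRT14 reached 68 counts (1.91 CPM). The summed basal markers were between 0.27 and 0.51 CPM in day 5 DMSO, 1.15 and 1.34 with 1 µM olaparib, and 1.32 and 1.94 with 5 µM. The summed immune markers, mostly CD68, moved with olaparib, from 6.17 to 6.70 CPM in day 5 DMSO, 16.7 to 18.4 with 1 µM and 28.7 to 31.1 with 5 µM, and from 4.81 to 7.54 in panel DMSO against 15.3 to 16.5 with olaparib and 13.9 to 14.3 with talazoparib, while CD3E stayed at or near 0. The summed fibroblast markers, mostly COL1A1, were between 11.9 and 16.0 CPM in panel DMSO. They were between 19.6 and 21.2 with abiraterone, 19.4 and 20.4 with enzalutamide, and 22.5 and 23.6 with the combinations. The endothelial markers, mostly VWF, were between 13.9 and 16.4 in panel DMSO, 20.7 and 21.3 with abiraterone, and 20.2 and 22.6 with Abi and Ola. They were between 11.6 and 12.7 with enzalutamide, and 15.0 and 16.0 with Enz and Tala. The part of these markers in the results was not tested. Mitochondrial genes took a share of the counts that moved with treatment, from 8.24% to 8.38% in day 5 DMSO, 10.6% to 11% with 1 µM and 14.3% to 14.6% with 5 µM olaparib on the same day, and from 9.68% to 10.1% in panel DMSO against 13.2% to 13.8% with the combinations. Its part in the results was not tested. In the panel, DMSO replicate A had the lowest level of the 3 vehicle libraries for 51 of the 58 genes, and the summed level of the 58 was 3993 CPM in replicate A, 4260.4 in B and 4546 in C, so panel counts are also given without it.

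Promoter sequences were examined because many of the genes moved together. For 50 of the 58, RefSeq (GRCh38.p14) held a promoter of 300 bases, 250 before and 50 after the first listed start. The letters of E2F sites (TTTCCCGC, TTTGGCGC, TTTCGCGC or TTTGCCGC, either strand) were in 24 of these 50 promoters (48.0%), against 3.33% of 27305 promoters of that length and 4.44% of 15843 from protein-coding genes. CCAAT, the box bound by NF-Y, was in 56.0% of the 50 and in 35.7% of all, and TTTGAA, the CHR element known from promoters of mitotic genes, was in 6.0% and 15.4%. Among 13 mitotic genes these shares were 7.69% for E2F letters, 92.3% for CCAAT and 61.5% for CHR letters. No promoter is given here for CCNE2, CDK2, DSCC1, E2F8, GINS4, MCM4, MCM5 and POLD3.

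Promoters of 6 genes whose RNA differed in timing or direction are printed from 250 bases before to 20 bases after the start, 5′ to 3′ on the strand of the gene, with E2F, CCAAT and CHR letters in capitals. MCM6 (chr2:135876424-135876693, minus strand) fell already at day 1, and its promoter holds a pair of overlapping E2F matches in 2 places and CCAAT letters, read on the other strand, in 2. PCNA (chr20:5126603-5126872, minus strand) and DTL (chr1:212035498-212035767, plus strand) were higher at day 1 with 5 µM olaparib and lower at day 5, and each holds E2F letters once, with CCAAT in 3 places in PCNA and in 1 in DTL. DBF4 (chr7:87876243-87876512, plus strand) fell the most of the 58 at day 1 with 5 µM, and holds CHR letters across its start and neither of the others. CDC45 (chr22:19479670-19479939, plus strand) changed the most between days and holds CCAAT 4 times without E2F letters. CCNE1 (chr19:29811741-29812010, plus strand), the exception among the genes after 5 days of a PARPi, holds none of the letters.
MCM6: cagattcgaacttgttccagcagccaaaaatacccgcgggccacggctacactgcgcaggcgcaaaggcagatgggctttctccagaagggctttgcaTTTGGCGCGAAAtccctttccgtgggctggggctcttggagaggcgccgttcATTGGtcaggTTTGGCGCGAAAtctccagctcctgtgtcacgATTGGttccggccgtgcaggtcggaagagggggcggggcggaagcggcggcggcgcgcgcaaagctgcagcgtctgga
PCNA: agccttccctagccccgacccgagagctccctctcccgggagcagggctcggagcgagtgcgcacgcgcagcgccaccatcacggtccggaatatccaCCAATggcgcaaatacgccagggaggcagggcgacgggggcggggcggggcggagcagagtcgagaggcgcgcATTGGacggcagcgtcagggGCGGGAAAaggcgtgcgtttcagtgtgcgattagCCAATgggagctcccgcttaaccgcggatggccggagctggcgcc
DTL: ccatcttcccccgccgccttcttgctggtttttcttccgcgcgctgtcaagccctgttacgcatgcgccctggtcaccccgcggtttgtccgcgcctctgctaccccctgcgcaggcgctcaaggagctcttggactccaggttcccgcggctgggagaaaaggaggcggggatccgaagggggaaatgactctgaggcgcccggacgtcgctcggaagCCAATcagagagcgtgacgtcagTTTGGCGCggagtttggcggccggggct
DBF4: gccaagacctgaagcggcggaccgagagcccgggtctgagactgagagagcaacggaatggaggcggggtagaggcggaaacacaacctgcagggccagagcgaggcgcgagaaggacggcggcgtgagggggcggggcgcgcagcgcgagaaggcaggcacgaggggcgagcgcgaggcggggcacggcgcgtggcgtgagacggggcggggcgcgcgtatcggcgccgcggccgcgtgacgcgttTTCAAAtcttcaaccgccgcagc
CDC45: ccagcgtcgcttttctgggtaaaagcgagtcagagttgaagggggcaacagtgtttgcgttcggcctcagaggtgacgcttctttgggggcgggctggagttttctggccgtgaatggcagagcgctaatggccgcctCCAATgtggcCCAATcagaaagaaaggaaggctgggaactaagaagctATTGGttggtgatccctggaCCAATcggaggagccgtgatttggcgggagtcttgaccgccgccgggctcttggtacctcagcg
CCNE1: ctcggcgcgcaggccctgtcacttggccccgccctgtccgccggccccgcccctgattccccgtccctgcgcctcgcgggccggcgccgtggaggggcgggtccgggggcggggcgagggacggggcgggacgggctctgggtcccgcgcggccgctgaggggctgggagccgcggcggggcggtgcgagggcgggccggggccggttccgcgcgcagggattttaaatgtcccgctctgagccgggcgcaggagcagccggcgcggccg

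Letters in a window are a description and show neither binding nor its absence. The 24 genes with E2F letters and the 26 without had like medians after 5 days of 5 µM olaparib, -1.76 and -1.78 on the log2 scale against DMSO. At day 1 with 5 µM the medians were -0.047 and -0.015, with abiraterone -0.046 and -0.15, and with enzalutamide 0.016 and -0.14. For the 28 genes with CCAAT and the 22 without, the medians after 5 days of 5 µM were -2.11 and -1.72. These splits were not tested. Of the 3 genes with CHR letters, DBF4 was at -0.76 at day 1 with 5 µM, while ASF1B was at 0.065 and RRM1 at 0.15.

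Untreated C4-2B cells expressed the whole replication set. Per kilobase of exon sequence in day 5 DMSO, PCNA stood highest at 145 CPM per kb, followed by TK1 at 78.6, MCM7 at 72.1 and TYMS at 64.3. The lowest were POLA2 at 2.93, E2F2 at 3.30 and HELLS at 3.45. The length used was the merged exon bases of each gene, 12006 for POLA2, 14231 for HELLS and 5462 for E2F2. In CPM not divided by length, POLA2 and HELLS stood above E2F2 and GINS3 in day 5 DMSO. Their places among the lowest thus depend on the length used. PCNA, TK1 and MCM7 held the first 3 places in the DMSO groups of day 1 and of the panel too. The level per kilobase (log2) bore little relation to the later response, with Pearson's r = 0.083 and Spearman's rho = 0.15 across the 58 genes against the log2 fold change at day 5 with 5 µM. These points are genes that share the same libraries, and their levels rest on the lengths above, so the values are a description.

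The time course compared 2 doses of olaparib at 2 times. After 5 days the replication genes were lower with olaparib at both doses, moderately at 1 µM and strongly at 5 µM. After 1 day the differences were smaller at both doses, with genes lower and genes higher. Log2 fold changes, standard errors and adjusted p-values are from edgeR's quasi-likelihood test with Benjamini-Hochberg adjustment over 18502 genes, and a gene counts as higher or lower when its adjusted p is under 0.05.

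With 1 µM for 1 day, 18 of 58 genes were lower (31.0%, against 9.52% of all genes) and 2 were higher (3.45%, against 6.30%), with a median of -0.06 on the log2 scale. With 5 µM for 1 day, 20 were lower (34.5%, against 23.4%) and 13 were higher (22.4%, against 21.6%), with a median of -0.02. The share higher at 5 µM was close to that of all genes, and the share lower was somewhat above it. With 1 µM for 5 days, 57 of 58 were lower (98.3%, against 22.9%) and 0 higher (against 23.4%), with a median of -0.47. With 5 µM for 5 days all 58 were lower (100%, against 33.9%) and 0 higher (against 34.4%), with a median of -1.84 and a range from -3.04 to -0.30. At an unadjusted p under 0.05, edgeR had 1 gene (CCNE1) higher with 1 µM and 0 with 5 µM at day 5. At an adjusted p under 0.05, DESeq2 called 0 higher at either dose. Scaled by total counts instead, the day 1 counts were 4 higher and 16 lower at 1 µM and 16 higher and 17 lower at 5 µM, where the median became 0.028.

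The summed level of the 58 genes was 5835, 5840.1 and 5948 CPM in the 3 day 1 DMSO libraries, in ascending order, 5595, 5598 and 5697 with 1 µM and 5744, 5780.3 and 5805 with 5 µM. At day 5 it was 5369.8, 5417 and 5423 in DMSO, 3979.8, 3985 and 3987 with 1 µM and 1682, 1696 and 1723 with 5 µM. The groups of each day did not overlap, those of day 1 with both doses just under vehicle and those of day 5 far apart. In bulk RNA, fewer cells in S phase and less RNA per cell cannot be told apart. Gene by gene, all libraries with 5 µM were under all with 1 µM for 58 of 58 genes at day 5 (29.3% of all genes had this order), and all with 1 µM were under all of DMSO for 57 (98.3%, against 26.5%), with CCNE1 as the exception. As group means, the 58 genes had a median of 27.9% of day 5 DMSO with 5 µM, from 12.2% (MCM10) to 81.5% (CCNE1), and a median of 72.2% with 1 µM, from 59.2% (PRIM1) to 107% (CCNE1).

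**Figure D1:**
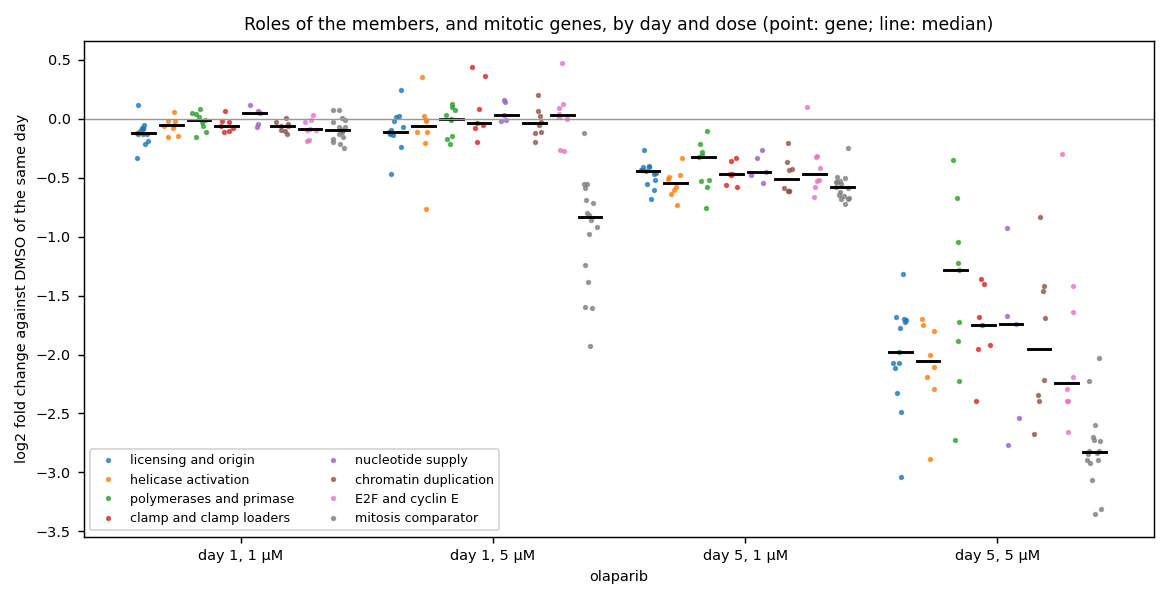
Log2 fold change against DMSO of the same day (vertical axis) for the members by role, and for 16 mitotic genes, with olaparib at 1 and 5 µM after 1 and 5 days (horizontal axis); each point is a gene and each black line a median. All points of the members lie below 0 at day 5 with 5 µM, while at day 1 with 5 µM their medians stay between -0.11 and 0.03 and that of the mitotic genes is at -0.84.

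By role group, the medians at day 5 with 5 µM were -2.24 for E2F and cyclin E, -2.06 for helicase activation and -1.98 for licensing. They were -1.95 for chromatin duplication, -1.75 for the clamp and its loaders, -1.74 for nucleotide supply and -1.28 for polymerases and primase. With 1 µM on the same day they lay closer together, from -0.54 for helicase activation to -0.32 for polymerases and primase. No test compared the roles with each other.

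In the licensing group, MCM2 was at 210.3, 215 and 219 CPM in day 5 DMSO. With 1 µM it was at 154, 158 and 160.2, and with 5 µM at 63.9, 62.3 and 62. Its 3 groups did not overlap, and the log2 fold changes were -0.45 ± 0.023 (SE, n = 3 per group) and -1.77 ± 0.025, with adjusted p = 2.41e-18 and 4.81e-37 from edgeR. MCM10, which helps to start the loaded helicase, fell the most of all 58 genes with 5 µM. It was at 84.1, 84.7 and 83.4 CPM in DMSO, 54.7, 55.3 and 55.7 with 1 µM and 9.66, 10.6 and 10.4 with 5 µM, a log2 fold change of -3.04 ± 0.04 for the higher dose (adjusted p = 6.65e-38, edgeR). The 13 licensing genes ranged from -3.04 to -1.31 with 5 µM, with MCM3, a subunit of the same ring as MCM2, at the weak end. CDT1, the loader that GMNN inhibits, was at -1.71 and GMNN itself at -1.68. ORC1 was at -2.49 and CDC6 at -2.32.

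CDC45, the helicase cofactor recruited at S phase entry, was at 58.6, 56.6 and 58.5 CPM in day 5 DMSO. It was at 36.7, 34.5 and 33.7 with 1 µM and 7.76, 7.33 and 8.47 with 5 µM, so that the 5 µM libraries were all far under the others. The log2 fold changes were -0.73 ± 0.035 and -2.88 ± 0.046 (adjusted p = 2.22e-19 and 1.91e-35, edgeR). The 4 GINS subunits, which complete the active helicase, fell together, from -1.70 for GINS3 to -2.29 for GINS1 with 5 µM. CDC7 and its activator DBF4, the kinase that fires origins, were at -1.80 and -1.75.

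POLA1, the catalytic subunit of the polymerase that starts each strand, was at 66.6, 65.2 and 65.3 CPM in day 5 DMSO, 45.3, 45.4 and 46.7 with 1 µM and 27.7, 25.2 and 28 with 5 µM (-0.52 ± 0.032 and -1.28 ± 0.035 on the log2 scale, adjusted p = 3.34e-16 and 5.02e-28, edgeR). PRIM1, the primase subunit of the same complex, changed more. It was at 46.9, 47.6 and 45.9 CPM in DMSO, 28.7, 27.8 and 26.6 with 1 µM, where it fell the most of the 58 genes (-0.75 ± 0.039, adjusted p = 1.72e-18), and 6.61, 7.33 and 7.29 with 5 µM (-2.73). Polymerase subunits differed among themselves. POLD2, a small subunit of polymerase delta, was at 259, 260.0 and 264 CPM in DMSO and 205, 209 and 203 with 5 µM (-0.35 ± 0.025), and POLE, the catalytic subunit of polymerase epsilon, was at -0.67, whereas its partner POLE2 was at -2.22.

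PCNA, the clamp that holds polymerases on DNA, was at 204, 206 and 201 CPM in day 5 DMSO, 159, 157 and 161 with 1 µM and 77.1, 73.9 and 79.4 with 5 µM. The log2 fold changes were -0.36 ± 0.025 and -1.41 ± 0.026 (adjusted p = 7.92e-15 and 2.07e-33, edgeR). Its loaders RFC2 to RFC5 were between -1.92 (RFC4) and -1.36 (RFC2) with 5 µM, and DTL, which marks CDT1 for destruction at PCNA, was at -2.39. RRM2, the regulatory subunit of ribonucleotide reductase, was at 264, 265 and 262 CPM in DMSO, 189, 189 and 189 with 1 µM and 44.8, 43.5 and 48.1 with 5 µM (-0.48 ± 0.025 and -2.54 ± 0.028, adjusted p = 4.1e-18 and 1.02e-39). TK1, the thymidine salvage kinase, was at -2.77 with 5 µM, while its partner in nucleotide supply DUT, which removes dUTP, was at -0.92.

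UHRF1, which guides maintenance methylation of new DNA, was at 68.6, 70.8 and 68.3 CPM in day 5 DMSO, 49, 51.6 and 53.3 with 1 µM and 12.6, 13.2 and 13.6 with 5 µM (-0.43 ± 0.033 and -2.40 ± 0.041, adjusted p = 1.09e-13 and 2.25e-34, edgeR). DNMT1, the methyltransferase it recruits, was at -1.42 with 5 µM. The histone chaperones ASF1B and CHAF1B were at -2.68 and -2.34, and SLBP, which binds histone mRNA, at -0.83. E2F1, an activator of the other genes, was at 66.1, 70.4 and 70.2 CPM in DMSO, 49.2, 46.4 and 47.4 with 1 µM and 14.6, 15.9 and 14.8 with 5 µM (-0.53 ± 0.034 and -2.19 ± 0.042, adjusted p = 1.34e-15 and 5.27e-33). The repressors E2F7 and E2F8 were at -2.39 and -2.66 with 5 µM, and both classes of E2F gene were thus lower.

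The cyclin E genes parted. CCNE1 was at 21.1, 20.3 and 20.9 CPM in day 5 DMSO, 21.7, 22.7 and 22.4 with 1 µM and 17.2, 15.9 and 17.7 with 5 µM. The 1 µM libraries were thus above all DMSO libraries, but the difference of 0.10 ± 0.047 did not pass the test (adjusted p = 0.0823, edgeR), and with 5 µM it was -0.30 ± 0.049 (adjusted p = 1.57e-06). CCNE2 was at 67.4, 67.6 and 64.4 CPM in DMSO, 46.7, 43.6 and 43.1 with 1 µM and 12.3, 13.3 and 12.4 with 5 µM (-0.58 and -2.39). Both encode a cyclin that activates CDK2, which was at -1.42 with 5 µM.

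**Figure D2:**
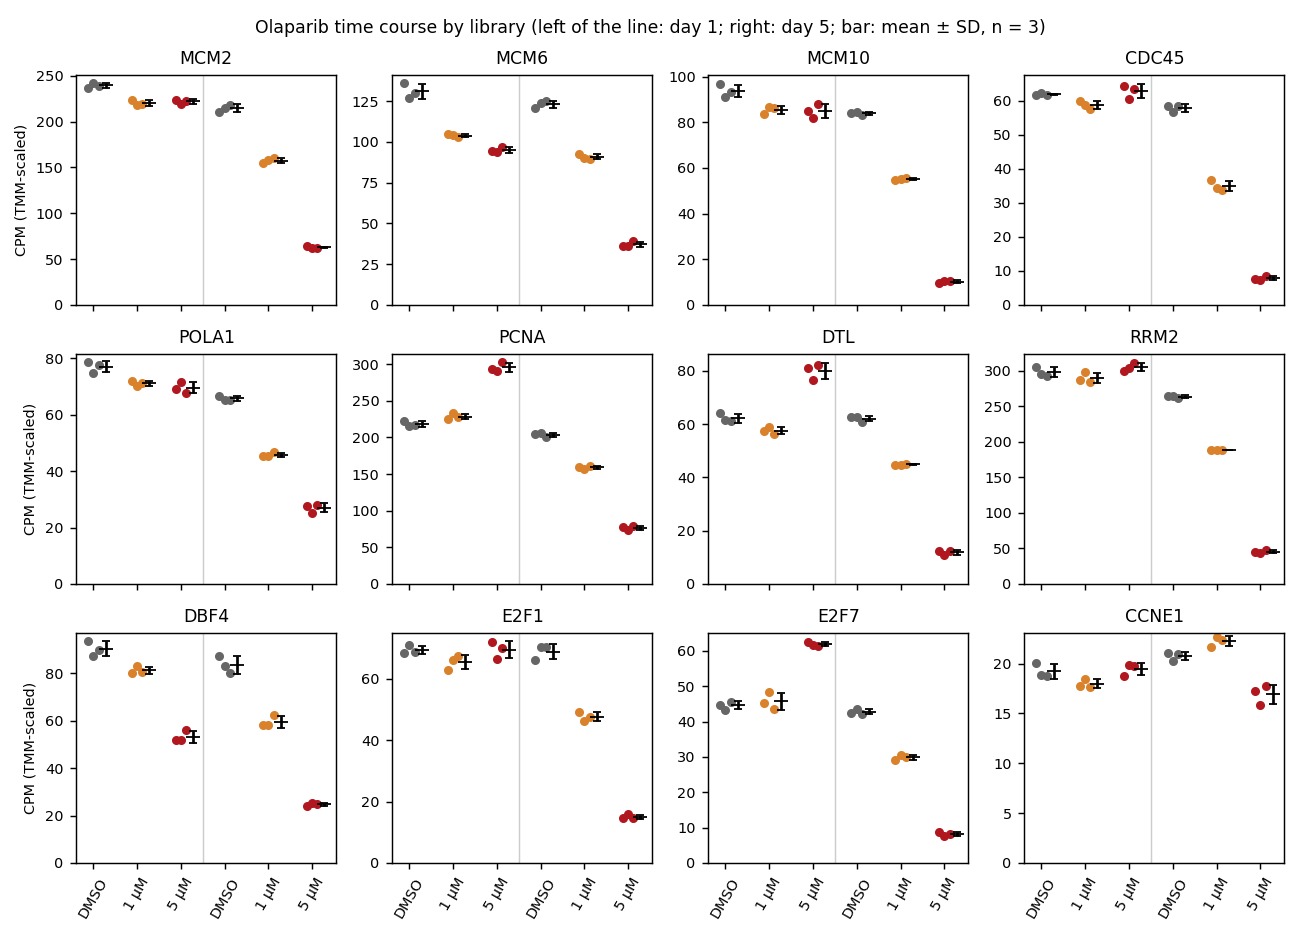
Level of 12 of the genes in each library of the olaparib time course (vertical axis, TMM-scaled CPM from 0; horizontal axis, DMSO, 1 µM and 5 µM at day 1 and, right of the line, day 5); points are libraries and bars the mean ± SD of 3. PCNA, DTL and E2F7 rise with 5 µM at day 1 and drop at day 5, DBF4 and MCM6 are already lower at day 1, and CCNE1 stays between 15.9 and 22.7 CPM throughout.

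After 1 day of 5 µM the genes went both ways. E2F7, a repressor of E2F targets that is itself a known p53 target, rose the most: 44.8, 43.4 and 45.7 CPM in day 1 DMSO, 45.3, 48.4 and 43.5 with 1 µM and 62.5, 61.7 and 61.4 with 5 µM. The 5 µM libraries lay above all others of day 1 (0.47 ± 0.035, adjusted p = 7.26e-14, edgeR), while with 1 µM the difference was 0.035 and did not pass. PCNA, also a known p53 target, was at 222, 215 and 217 CPM in DMSO, 226, 233 and 227 with 1 µM and 293, 291 and 303 with 5 µM (0.44 ± 0.024, adjusted p = 1.39e-17). DTL was at 64.1, 61.5 and 61.1 CPM in DMSO and 81, 76.6 and 82.2 with 5 µM (0.36 ± 0.031). With 1 µM it was at 57.5, 58.8 and 56.3, lower than DMSO (adjusted p = 0.0115, edgeR). That call was lost with total-count scaling and without DMSO replicate 1 or Ola 1 µM replicate 3. GINS4 was at 55.7, 54.3 and 52.7 CPM in DMSO, 54.7, 57.4 and 57.6 with 1 µM and 67.9, 69.5 and 70.1 with 5 µM (0.35 ± 0.032). Each of these was clear of DMSO with 5 µM, and each was lower at day 5. In all, 13 genes were higher at day 1 and lower at day 5 with 5 µM (22.4%, against 3.41% of all genes), which are all of those higher at day 1 since every one of the 58 was lower at day 5, the others being CDT1, HELLS, TYMS, RRM1, CCNE2, POLA2, POLD3, CDK2 and RFC2. The day 1 calls were lost without DMSO replicate 2 or 3 or Ola 5 µM replicate 3 for CCNE2 and POLA2, without DMSO replicate 3 or Ola 5 µM replicate 2 and with DESeq2 for POLD3, and without DMSO replicate 2 or 3 or Ola 5 µM replicate 2, with DESeq2 and in the fit of only the groups compared for RFC2.

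In the other direction, DBF4 was at 93.7, 87.3 and 89.8 CPM in day 1 DMSO, 80.1, 82.9 and 80.6 with 1 µM and 51.8, 51.7 and 55.9 with 5 µM, with no overlap between the 3 groups (-0.15 ± 0.034 and -0.76 ± 0.036, adjusted p = 0.00171 and 6.46e-19, edgeR). MCM6 was at 136, 127 and 129.8 CPM in DMSO, 105, 104 and 103 with 1 µM and 94.2, 93.6 and 96.9 with 5 µM (-0.33 ± 0.029 and -0.46 ± 0.029, adjusted p = 4.66e-11 and 6e-16), the largest fall of the 58 with 1 µM. MCM5, in the same helicase ring, was at 116, 115 and 115 CPM in DMSO and 99.4, 98.7 and 101 with 1 µM (-0.21 ± 0.027). Counted by gene, 13 of the 58 were lower at day 1 with both doses (22.4%, against 9.08% of all genes), which were tested against the same DMSO libraries. TYMS, which makes thymidylate, was at 176, 170.0 and 167 CPM in DMSO, 186, 184 and 185 with 1 µM and 193, 187 and 193 with 5 µM, and CDT1 at 47.5, 49.1 and 47.2 CPM in DMSO, 53.3, 51.2 and 51.3 with 1 µM and 56.6, 56 and 57.9 with 5 µM. These were the 2 genes higher with both doses (3.45%, against 5.86% of all genes), 0.12 and 0.11 with 1 µM. The call for CDT1 at 1 µM was lost without DMSO replicate 1 (adjusted p = 0.0701), DMSO replicate 3 (0.0855) or Ola replicate 1 (0.110), edgeR.

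Most others lay within 0.2 of vehicle on the log2 scale at day 1. MCM2 was at 237, 242 and 239 CPM in DMSO, 224, 218 and 219.7 with 1 µM and 224, 219 and 223 with 5 µM. It was below DMSO at both doses (-0.12 and -0.11). With total-count scaling the value at 5 µM was -0.0605 (adjusted p = 0.0281, edgeR). MCM10 was at 96.6, 91.3 and 93.4 CPM in DMSO, 83.6, 86.8 and 86.1 with 1 µM and 84.9, 81.8 and 88.1 with 5 µM, and POLA1 at 78.5, 74.7 and 77.7 CPM in DMSO, 71.8, 70.2 and 71.2 with 1 µM and 69.1, 71.6 and 67.8 with 5 µM. These declines were small beside those of day 5. CDC45 was at 61.7, 62.2 and 61.8 CPM in DMSO, 59.9, 58.8 and 57.7 with 1 µM and 64.4, 60.7 and 63.6 with 5 µM, RRM2 at 306, 296 and 293 CPM in DMSO, 288, 298 and 285 with 1 µM and 300.4, 305 and 311 with 5 µM, and E2F1 at 68.5, 70.9 and 68.9 CPM in DMSO, 62.9, 66.2 and 67.4 with 1 µM and 71.9, 66.6 and 70.0 with 5 µM. None of these 3 passed the test at either dose. UHRF1 was at 74.1, 77.5 and 77.3 CPM in DMSO, 69.5, 69.7 and 70.0 with 1 µM and 72.2, 72.4 and 67.1 with 5 µM (-0.13 and -0.11), and the call at 5 µM was lost without Ola 5 µM replicate 3 (adjusted p = 0.0619, edgeR) and with total-count scaling. At 5 µM, 46 of the 58 genes were within 0.2 of DMSO on the log2 scale (79.3%, against 52.4% of all genes), and at 1 µM 56 were (96.6%, against 74.7%).

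Raising the dose from 1 to 5 µM had different outcomes on the 2 days. At day 1, 18 of 58 genes were higher at the higher dose (31.0%, against 12.8% of all genes) and 9 lower (15.5%, against 15.9%), with a median of 0.033. DTL (0.48 ± 0.031), E2F7 (0.44) and PCNA (0.37) led the first and DBF4 (-0.61 ± 0.036) the second. At day 5 all 58 were lower at the higher dose (100%, against 27.0%) and none higher (against 26.6%), with a median of -1.36.

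Interaction terms tested these differences directly. The effect of 1 µM was lower at day 5 than at day 1 for 56 genes (96.6%, against 14.2% of all), led by CDC45 (-0.65 ± 0.047, adjusted p = 1.3e-13, edgeR) and GINS4 (-0.64 ± 0.049, 4.34e-13), and higher for CCNE1 (0.19 ± 0.067, 0.0257). That higher call was lost with total-count scaling and without day 1 DMSO replicate 1, day 1 Ola 1 µM replicate 1 or 3, day 5 DMSO replicate 2, or day 5 Ola 1 µM replicate 2 or 3. The effect of 5 µM was lower at day 5 for all 58 (against 27.7%), with a median of -1.86, led by CDC45 (-2.91 ± 0.057, 1.2e-31) and MCM10 (-2.90 ± 0.05, 5.87e-33). The step from 1 to 5 µM was lower at day 5 for all 58 too (against 19.4%), led by MCM10 (-2.42 ± 0.052, 1.13e-29) and DTL (-2.40 ± 0.053, 3.71e-29). These 3 terms share libraries, so they are not separate evidence.

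Set side by side, 5 days at 1 µM gave the lower log2 fold change than 1 day at 5 µM for 55 of the 58 genes (94.8%, against 50.5% of all genes). The exceptions were MCM6 (-0.44 and -0.46), DBF4 (-0.49 and -0.76) and CCNE1 (0.10 and 0.018). Each value is against DMSO of its own day, and the difference between these conditions, which differ in both dose and duration, was not tested. Across the 58 genes, the log2 fold changes of 5 µM at day 1 and day 5 had Pearson's r = -0.0051, and those of 1 µM r = 0.17. E2F7 and DTL, at 0.47 and 0.36 at day 1, were both at -2.39 at day 5.

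Vehicle cultures changed with time too. Between day 1 and day 5 of DMSO, 41 genes were lower (70.7%, against 13.4% of all) and 2 higher (against 11.1%), with a median of -0.11. E2F8, a repressor of E2F targets, rose by 0.25 (adjusted p = 0.000129, edgeR), a call kept in every setting. CCNE2 rose by 0.12 (adjusted p = 0.0368), but this call was lost with RLE scaling, DESeq2, and without day 1 DMSO replicate 2 or 3 or day 5 DMSO replicate 1 or 2 (adjusted p from 0.0526 to 0.158), and total-count scaling gave 4 genes higher and 33 lower. DNMT1 was at -0.25 and E2F2 at -0.26, the lowest value. The comparisons of olaparib with DMSO each used the vehicle of the same day.

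Mitotic genes, a list of 16 set beside the members for timing, followed another course at day 1. Their median was -0.84 with 5 µM for 1 day, where 16 of 16 were lower (against 23.4% of all genes), beside a median of -0.02 for the replication genes. With 1 µM for 1 day it was -0.10 (8 lower, against 9.52% of all genes, and 1 higher, against 6.30%). At day 5 it was -0.58 with 1 µM and -2.83 with 5 µM, with 16 of 16 lower at each dose (against 22.9% and 33.9% of all genes). Their summed level was 2715, 2723 and 2813 CPM in day 1 DMSO and 1572, 1578 and 1597 with 5 µM for 1 day. The groups did not overlap for that sum, and the difference between the lists was not tested.

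In the panel, each PARPi alone lowered most of the replication genes after 5 days. With olaparib, 51 of 58 were lower (87.9%, against 16.0% of 18625 genes tested) and 1 was higher (1.72%, against 19.6%), with a median of -0.33 and a range from -0.60 to 0.27. With talazoparib, 54 were lower (93.1%, against 15.4%) and 1 higher (1.72%, against 18.4%), with a median of -0.40 and a range from -0.63 to 0.21. Without DMSO replicate A the counts were 53 lower and 1 higher with olaparib, and 56 lower and 0 higher with talazoparib. Without DMSO replicate C they were 45 lower and 1 higher, and 53 lower and 1 higher. The 51 genes lower with olaparib were also lower with talazoparib (11.2% of all genes were lower with both), which was tested against the same vehicle libraries. In both comparisons the gene that rose was CCNE1. Panel libraries of olaparib were all under those of DMSO for 48 of 58 genes (82.8%, against 20.7% of all genes), and those of talazoparib for 54 (93.1%, against 18.9%).

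CDC45 was at 43.1, 47.3 and 49.8 CPM in panel DMSO, 32.4, 30.1 and 31.2 with olaparib and 34.1, 26.5 and 30.4 with talazoparib. Both drugs were clear of DMSO (-0.58 ± 0.066 and -0.63 ± 0.066, adjusted p = 9.06e-08 and 2.9e-08, edgeR). E2F7 was at 27, 31.7 and 35 CPM in DMSO, 21, 19.6 and 21.6 with olaparib and 21.3, 19.3 and 21.2 with talazoparib, the largest fall with olaparib (-0.60 ± 0.071, adjusted p = 6.32e-08). ASF1B, a histone chaperone, was at 32.9, 32.6 and 35.5 CPM in DMSO, 23.8, 24.2 and 26.3 with olaparib and 23.5, 19.1 and 22.8 with talazoparib and fell the most but for CDC45 with talazoparib (-0.63 ± 0.058, adjusted p = 9.68e-11). CCNE1 was at 15.3, 14.1 and 17.6 CPM in DMSO, 19, 18.8 and 18.9 with olaparib and 18.6, 16.8 and 19.1 with talazoparib. The olaparib libraries lay above all of DMSO and the talazoparib libraries overlapped them (0.27 ± 0.078 and 0.21 ± 0.077, adjusted p = 0.00653 and 0.0335). The call for CCNE1 with olaparib was lost without DMSO replicate B (0.19, adjusted p = 0.0804), and that with talazoparib without DMSO replicate A or B or Tala replicate A or C, where the value was as low as 0.14 (adjusted p = 0.243, edgeR), and also with total-count scaling (adjusted p = 0.103) and in the fit of only the groups compared (0.0717).

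The other anchors of their roles were lower with both drugs. MCM2 was at 142, 155 and 170.2 CPM in DMSO, 122, 126 and 129 with olaparib and 126, 110.1 and 114 with talazoparib (-0.31 and -0.42). POLA1 was at 55.5, 64.9 and 65.8 CPM in DMSO, 44.4, 44.7 and 45 with olaparib and 46.3, 42.3 and 46.2 with talazoparib (-0.48 and -0.47), and PCNA at 151, 161 and 165 CPM in DMSO, 136, 129 and 141 with olaparib and 137, 131 and 137 with talazoparib (-0.23 and -0.24). No PARPi library overlapped DMSO for these 3. RRM2 was at 172, 189 and 217 CPM in DMSO, 139, 143 and 150.0 with olaparib and 142, 114 and 131 with talazoparib (-0.42 and -0.58), UHRF1 at 45, 48.7 and 54.4 CPM in DMSO, 39.8, 37.8 and 42 with olaparib and 39.8, 35.4 and 37.2 with talazoparib (-0.31 and -0.40), and E2F1 at 43.9, 45.2 and 51 CPM in DMSO, 34.7, 37.3 and 39 with olaparib and 36.3, 31.9 and 32.5 with talazoparib (-0.34 and -0.48). These were clear of DMSO too.

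Compared directly, talazoparib at 10 nM and olaparib at 1 µM, given at different doses, differed for few of the genes. Lower with talazoparib were 6 of 58 and none was higher, while of 18625 genes 977 were lower and 580 higher (8.36% in either direction). The 6 were E2F2 (-0.33 ± 0.092, adjusted p = 0.0204, edgeR), ASF1B (-0.19), RFC2 (-0.18), POLD1 (-0.17), DNMT1 (-0.16) and POLD2 (-0.095). At an unadjusted p under 0.05, 14 were lower and 0 higher with edgeR. At an adjusted p under 0.05, DESeq2 called 9 lower and 0 higher. The median of the 58 differences was -0.048, with values from -0.33 to 0.068 and standard errors up to 0.092, which limits what could be detected. The count rested on single libraries. It was 3 without Ola replicate A, 0 without Ola replicate C, 11 without Tala replicate A, and 0 without Tala replicate B or Tala replicate C.

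Olaparib at 1 µM for 5 days was tested in both experiments, each with its own DMSO. The log2 fold changes of the 58 genes had Pearson's r = 0.88 and Spearman's rho = 0.87 across genes, 57 had the same sign, and 51 were lower in both (87.9%, against 14.0% of all genes). POLD2 was the gene of opposite sign (0.046 in the panel, -0.10 in the time course). The time course gave the lower value for 57 of 58, with a median difference of -0.13. CCNE1 stood apart from the rest in both, at 0.27 and 0.10.

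**Figure D3:**
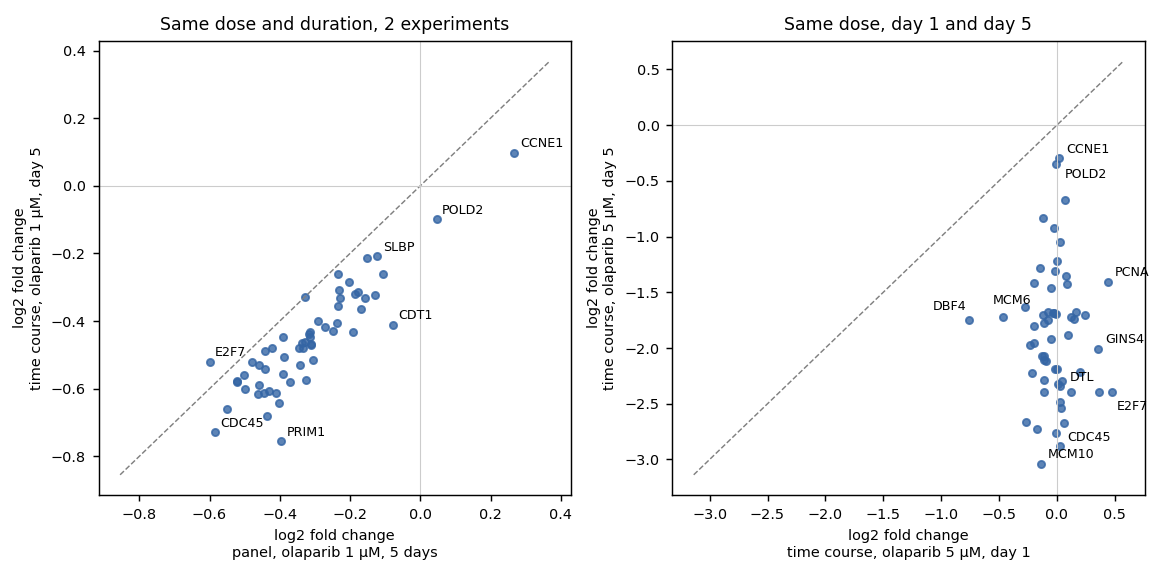
Log2 fold changes of the 58 genes against DMSO: left, olaparib at 1 µM for 5 days in the panel (horizontal) and in the time course (vertical); right, olaparib at 5 µM at day 1 (horizontal) and day 5 (vertical); the dashed line marks equal values. On the left the genes follow the line with r = 0.88 and lie below it but for 1 gene, and on the right day 1 values lie between -0.76 and 0.47 while all day 5 values are below 0.

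The ARPi alone changed the set unevenly. With abiraterone, 25 genes were lower (43.1%, against 27.1% of all) and 5 higher (8.62%, against 25.8%), with a median of -0.081. With enzalutamide, 19 were lower (32.8%, against 26.3%) and 11 higher (19.0%, against 27.0%), with a median of -0.015. The shares with enzalutamide were not far from those of all genes. Without DMSO replicate A they were 28 lower and 4 higher with abiraterone, and 22 lower and 7 higher with enzalutamide. Without DMSO replicate C they were 17 lower and 11 higher with abiraterone (median -0.019), and 13 lower and 16 higher with enzalutamide (median 0.047). Scaled by total counts, they were 15 lower and 11 higher, and 13 lower and 16 higher with a median of 0.039, so the balance for enzalutamide turned with the scaling as well as with 1 vehicle library. Both ARPi, measured against the same vehicle, lowered 18 of the genes (31.0%, against 21.4% of all genes) and raised MCM3, POLE, CHAF1A and CCNE2 (6.90%, against 20.7%), while 21 passed with neither (36.2%, against 36.5%) and TK1 went opposite ways (-0.11 and 0.13). Neither call for TK1 held throughout: that with abiraterone was lost with total-count scaling (adjusted p = 0.531, edgeR), RLE scaling, DESeq2, and without DMSO replicate C or Abi replicate B or C, and that with enzalutamide without DMSO replicate A or B or Enz replicate B.

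CCNE2 was at 37.3, 44.3 and 46.9 CPM in DMSO, 56.5, 54.3 and 58.8 with abiraterone and 52.9, 59.3 and 55.2 with enzalutamide, above all vehicle libraries (0.39 ± 0.075 and 0.38 ± 0.074, adjusted p = 0.000175 and 0.000247, edgeR). MCM3 was at 116, 120.5 and 127 CPM in DMSO, 152, 149 and 152 with abiraterone and 151, 162 and 157 with enzalutamide (0.32 ± 0.036 and 0.37 ± 0.035), also with no overlap, although the 5 other subunits of its ring lay between -0.18 and 0.029 with abiraterone. HELLS, a chromatin remodeller, was at 29.7, 37.8 and 40.6 CPM in DMSO, 39.6, 43.7 and 40.2 with abiraterone and 48, 47 and 46.3 with enzalutamide. Its rise passed with enzalutamide (0.38 ± 0.077, adjusted p = 0.000362) and not with abiraterone (0.18 ± 0.079, adjusted p = 0.0615). DUT was at 67.6, 66.8 and 67.7 CPM in DMSO, 44.1, 41.1 and 42.3 with abiraterone and 47.6, 47.7 and 49.2 with enzalutamide, the largest fall with each (-0.66 ± 0.039 and -0.48 ± 0.038, adjusted p = 1.03e-16 and 2.99e-13). DBF4 was at 71.6, 74.5 and 75.8 CPM in DMSO, 49.4, 47.8 and 51 with abiraterone and 55.6, 57.4 and 58.8 with enzalutamide (-0.58 ± 0.041 and -0.37 ± 0.04). For both genes every ARPi library was under every vehicle library.

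CDC25A, the phosphatase that activates CDK2, was at 31.4, 35.2 and 42.3 CPM in DMSO, 33.4, 31.3 and 32.6 with abiraterone and 28.4, 29.8 and 25.9 with enzalutamide. It passed with enzalutamide (-0.38 ± 0.083, adjusted p = 0.000661, edgeR), with -0.25 in place of that value when DMSO replicate C was left out. GMNN, the inhibitor of CDT1, was at -0.48 with abiraterone and -0.32 with enzalutamide, and PRIM1 at -0.43 and -0.26. CDC45 was at 39.7, 37.1 and 35.2 CPM with abiraterone and 38.6, 40.8 and 40.5 with enzalutamide (-0.33 and -0.23). MCM2 was at 152, 145 and 147 CPM with abiraterone and 143, 164 and 156 with enzalutamide, PCNA at 163, 147 and 152 CPM with abiraterone and 155, 170.3 and 163 with enzalutamide, and neither gene passed. POLA1 was at 50.8, 49.4 and 54.3 CPM with abiraterone and 58, 57.5 and 57.4 with enzalutamide and passed with abiraterone (-0.27). CCNE1 was at 14.6, 13.9 and 12.7 CPM with abiraterone and 13.8, 13.1 and 13 with enzalutamide (-0.19 ± 0.081 and -0.25 ± 0.08, adjusted p = 0.0434 and 0.0098, edgeR). Its abiraterone libraries overlapped those of DMSO and its enzalutamide libraries were all lower. Without DMSO replicate C both calls were lost (adjusted p = 0.360 and 0.145, edgeR), and that with abiraterone also with DESeq2, RLE scaling, total-count scaling, the fit of only the groups compared, and without DMSO replicate A or Abi replicate B or C.

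RRM2 was at 161, 159 and 166 CPM with abiraterone and 149.6, 165 and 159 with enzalutamide (-0.25 and -0.29), but its call with abiraterone was lost without DMSO replicate C (-0.16, adjusted p = 0.0826, edgeR) and with total-count scaling (adjusted p = 0.0695), and in a fit of only the groups compared the adjusted p was 0.0856 with abiraterone and 0.0635 with enzalutamide. UHRF1 was at 57.8, 53.8 and 56.1 CPM with abiraterone and 52.1, 57.4 and 51.8 with enzalutamide, and its rise with abiraterone (0.18) was lost without DMSO replicate A (0.11, adjusted p = 0.117), DMSO replicate B or Abi replicate A. E2F1 was at 50.6, 47.6 and 49.4 CPM with abiraterone and 49.6, 54.2 and 52.2 with enzalutamide, and its rise with enzalutamide (0.15) was lost without DMSO replicate A (adjusted p = 0.104), DMSO replicate B or Enz replicate B. For these 3 anchors the range of the vehicle libraries was wider than the difference between the group means.

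**Figure D4:**
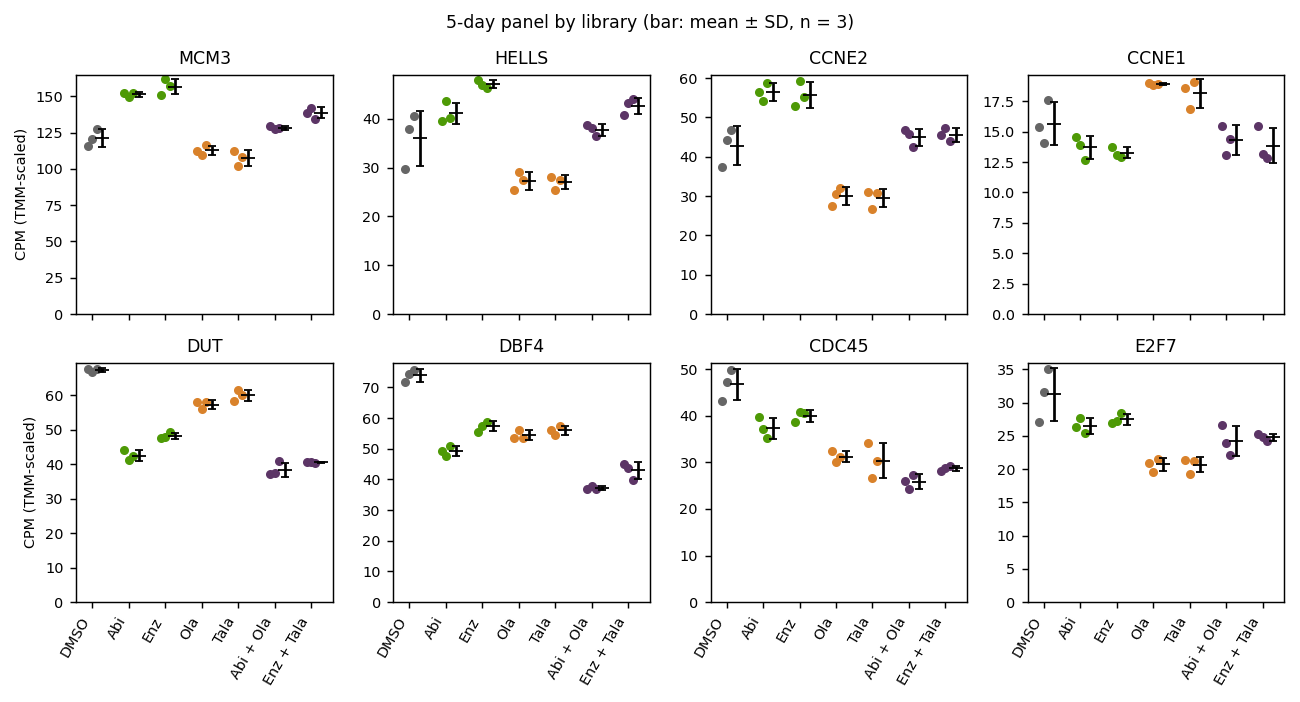
Level of 8 of the genes in each library of the 5-day panel (vertical axis, TMM-scaled CPM from 0; horizontal axis, the 7 treatments); points are libraries and bars the mean ± SD of 3. MCM3, HELLS and CCNE2 are lower with a PARPi alone than with an ARPi alone, DUT and DBF4 are lower with both classes and lowest with the combinations, and CCNE1 is highest with a PARPi alone.

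With the combinations, the set was again mostly lower. Abiraterone with olaparib lowered 48 genes (82.8%, against 31.1% of all) and raised 1 (1.72%, against 31.1%), with a median of -0.38. Enzalutamide with talazoparib lowered 40 (69.0%, against 31.3%) and raised 3 (5.17%, against 31.2%), with a median of -0.27. Without DMSO replicate A these were 52 lower and 0 higher, and 45 lower and 2 higher, and without DMSO replicate C 44 lower and 3 higher, and 36 lower and 5 higher. Both combinations lowered 40 of the genes (69.0%, against 27.3% of all genes). Those raised with Enz and Tala were HELLS (0.23), MCM3 (0.19) and POLE (0.18). The gene raised with Abi and Ola was MCM3, at 129.8, 127 and 128 CPM against 116, 120.5 and 127 in DMSO (0.081 ± 0.036, adjusted p = 0.0493, edgeR), a call that did not hold without DMSO replicate A (0.047, adjusted p = 0.299) or B, without any of the 3 Abi and Ola libraries, or with DESeq2.

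DBF4 fell the most with each combination. It was at 37, 37.9 and 36.9 CPM with abiraterone and olaparib and 45.1, 43.7 and 40.0 with enzalutamide and talazoparib (-0.99 ± 0.042 and -0.78 ± 0.041, adjusted p = 8.98e-21 and 2.56e-18, edgeR), under every library of the single drugs, where olaparib gave 53.5, 56.2 and 53.6 and talazoparib 56, 54.5 and 57.5. DUT was at 37, 37.5 and 40.8 CPM with Abi and Ola and 40.7, 40.5 and 40.3 with Enz and Tala (-0.81 and -0.73), against 57.9, 55.9 and 58 with olaparib and 58.4, 61.6 and 60.1 with talazoparib. CDC45 was at 26, 24.2 and 27.3 CPM with Abi and Ola and 28.2, 28.8 and 29.1 with Enz and Tala (-0.86 and -0.71). HELLS stayed at 40.8, 43.2 and 44 CPM with enzalutamide and talazoparib, above DMSO in the test (0.23 ± 0.077, adjusted p = 0.0135), but at 0.12 without DMSO replicate A (adjusted p = 0.0657), and in a fit of only the groups compared the adjusted p was 0.113. CCNE2 was at 46.7, 45.7 and 42.5 CPM with Abi and Ola and 45.5, 47.3 and 43.9 with Enz and Tala and CCNE1 at 15.5, 13.1 and 14.4 CPM with Abi and Ola and 15.5, 13.2 and 12.8 with Enz and Tala, and neither gene passed with either combination.

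The remaining anchors with the combinations, abiraterone with olaparib first, were as follows. MCM2 was at 114, 122 and 121 CPM with Abi and Ola and 131, 126 and 131 with Enz and Tala (-0.39 and -0.27), POLA1 at 46.2, 41.2 and 41.3 CPM with Abi and Ola and 43.6, 42.1 and 46.8 with Enz and Tala (-0.54 and -0.50), and RRM2 at 126, 128 and 129.8 CPM with Abi and Ola and 123, 130.5 and 127 with Enz and Tala (-0.59 and -0.61). These passed with both. PCNA was at 145, 145 and 142 CPM with Abi and Ola and 157, 149.8 and 152 with Enz and Tala and E2F1 at 35.8, 39.8 and 38.7 CPM with Abi and Ola and 43.5, 43.4 and 42.6 with Enz and Tala, and both passed with abiraterone and olaparib only (-0.14 and -0.30), while the difference between the combinations was not tested. UHRF1 was at 42.3, 40.1 and 46.1 CPM with Abi and Ola and 44.1, 43.4 and 44.3 with Enz and Tala (-0.21 and -0.17), with -0.14 for the first without DMSO replicate C, and with the second call lost without DMSO replicate C (-0.097, adjusted p = 0.157, edgeR) or Enz and Tala replicate B, and with total-count scaling (adjusted p = 0.0658).

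Adding a PARPi to an ARPi lowered the set again. Against abiraterone alone, abiraterone with olaparib had 48 genes lower (82.8%, against 14.7% of all) and 0 higher (against 14.4%), with a median of -0.29, led by E2F8 (-0.58 ± 0.086, adjusted p = 2.94e-06, edgeR) and CDC45 (-0.53 ± 0.07). Against enzalutamide alone, enzalutamide with talazoparib had 43 lower (74.1%, against 17.9%) and 0 higher (against 16.5%), with a median of -0.23, led by CDC45 (-0.48 ± 0.066, adjusted p = 2.55e-06) and TK1 (-0.45). At an unadjusted p under 0.05 edgeR still had 0 higher in both, as had DESeq2 after adjustment. These comparisons do not use the DMSO libraries, and 41 genes were lower in both (70.7%, against 11.3% of all genes). Of the 18 genes lowered by both ARPi, 15 were lowered further by each added PARPi. These 4 calls together were held by 25.9% of the set, against 5.54% of all genes. Among the 15 was DBF4, which went from 49.4, 47.8 and 51 CPM with abiraterone to 37, 37.9 and 36.9 with olaparib added.

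The combinations were then set against the sum of their drugs on the log2 scale. For abiraterone by olaparib, 5 interactions were positive, meaning a smaller fall than the sum, and 1 was negative (together 10.3% of the 58, while 12.8% of all genes departed in either direction), with a median of 0.039. E2F7 (0.47 ± 0.10, adjusted p = 0.00176, edgeR) and WDHD1 (0.29 ± 0.067, 0.00399), which joins polymerase alpha to the helicase, led the first, and POLD2 (-0.28 ± 0.034, 5.76e-07) was the negative one. For enzalutamide by talazoparib, 13 were positive and 1 negative (together 24.1%, against 12.6% of all genes in either direction), with a median of 0.15, led by E2F7 (0.45 ± 0.10, 0.00216) and ORC6 (0.40 ± 0.11, 0.0126), a subunit of the origin recognition complex. POLD2, RRM1 and E2F7 passed in both (5.17%, against 5.24% of all genes), but the negative call of the second pair, POLD2, was lost in 6 of the 7 other settings, all but DESeq2, and without any of the 12 libraries but DMSO replicate B and Enz replicate A. The counts turned on the vehicle, which enters both sums. Without DMSO replicate A they were 13 and 26. Without DMSO replicate C, the first pair had 3 positive and 5 negative terms with a median of -0.019, so its direction turned, and the second had 8 positive and 0 negative (edgeR).

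E2F7 showed the pattern in its levels, with 27, 31.7 and 35 CPM in DMSO, 26.3, 27.7 and 25.4 with abiraterone, 21, 19.6 and 21.6 with olaparib and 26.7, 23.9 and 22.1 with both. The combined libraries were above those of olaparib alone. For the other pair it was at 26.9, 27.2 and 28.5 with enzalutamide, 21.3, 19.3 and 21.2 with talazoparib and 25.2, 24.8 and 24.3 with both. WDHD1 was at 74.5, 81 and 83.5 CPM in DMSO, 64.6, 62.3 and 61.8 with abiraterone, 55.7, 55.8 and 57.9 with olaparib and 56.2, 54.5 and 51.9 with both, where the combination overlapped olaparib alone. ORC6 was at 22.7, 24.9 and 29.6 in DMSO, 27.3, 28.6 and 26.4 with enzalutamide, 21.4, 18.1 and 20.9 with talazoparib and 26.6, 29.9 and 28.2 with both, where the combination overlapped enzalutamide and DMSO.

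**Figure D5:**
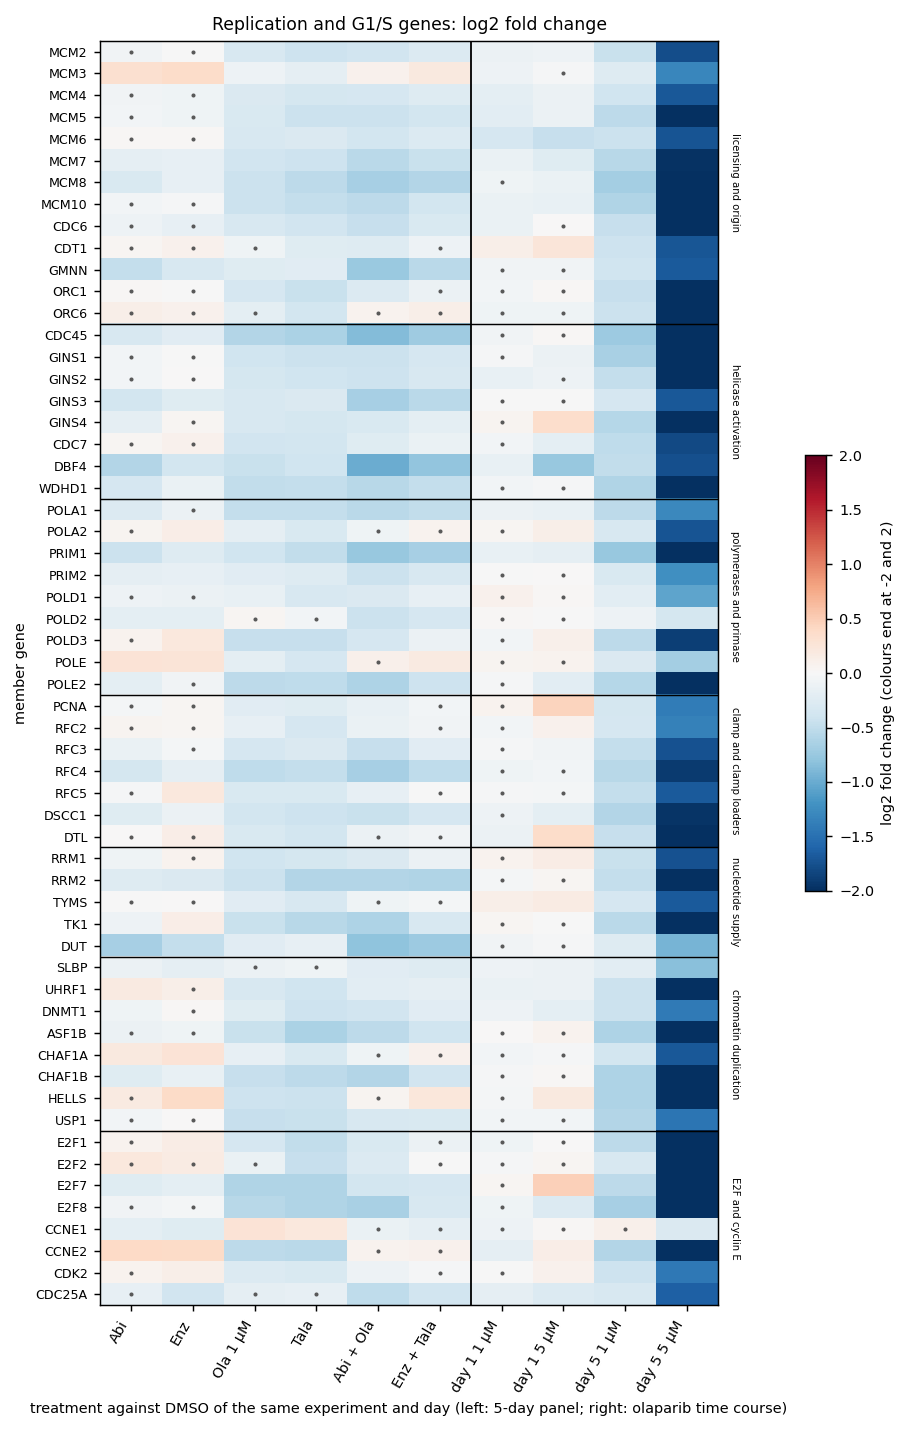
Log2 fold change against DMSO (colour, ending at -2 and 2) of the 58 genes, ordered by role (rows), in the 6 panel treatments and the 4 time course conditions (columns); a grey dot marks a difference that did not pass the test. The day 5, 5 µM column is blue in all 58 rows, both PARPi columns of the panel are blue but for CCNE1 and, with olaparib, POLD2, and the ARPi columns hold both colours.

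Genes of the same pathways outside the 58 were counted on 3 further lists. Of 30 other fork and origin genes, 23 were lower and 2 higher at day 5 with 5 µM (median -1.06, against 33.9% lower and 34.4% higher of all genes), 21 and 3 with 1 µM (median -0.28, against 22.9% and 23.4%), and 12 and 10 at day 1 with 5 µM (median -0.013, against 23.4% and 21.6%). CLSPN, which carries the checkpoint signal at forks, was at -2.46 ± 0.039 at day 5 with 5 µM. LIG1, the ligase that joins Okazaki fragments, rose by 0.37 ± 0.042 and 1.01 ± 0.041 at day 1 with 1 and 5 µM and was at -0.58 at day 5 with 5 µM. POLD4, the smallest subunit of polymerase delta, rose where the members fell, by 0.66 with panel olaparib, 0.57 with talazoparib and 0.84 at day 5 with 5 µM. ORC5 was lower with the ARPi (-0.90 ± 0.044 and -0.98 ± 0.044) and MTBP, which helps to fire origins, with olaparib at 1 µM for 5 days (-0.60 in the time course and -0.51 in the panel). With olaparib in the panel, 19 of the 30 were lower and 2 higher (against 16.0% and 19.6% of all genes), and with talazoparib 19 and 2 (against 15.4% and 18.4%).

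Of 12 other nucleotide and chromatin assembly genes, 10 were lower and 2 higher at day 5 with 5 µM (median -0.99, against 33.9% and 34.4% of all genes), and 7 and 3 at day 1 with 5 µM (against 23.4% and 21.6%). RRM2B, the p53-inducible subunit of ribonucleotide reductase, rose by 1.03 ± 0.036 at day 1 and 1.20 at day 5 with 5 µM, opposite to RRM2 on day 5. CDCA7 was at -0.37 at day 1 with 1 µM, and ATAD2 at -1.04 with abiraterone and olaparib. Of 25 genes of RB, E2F and CDK control, 24 passed the filter on low counts and CCND2 did not. At day 5 with 5 µM 14 of the 24 were lower and 8 higher (median -0.29, against 33.9% and 34.4% of all genes), so the share higher was near that of all genes.

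CDKN1A was higher in all 10 comparisons with DMSO. At day 1 it rose by 1.87 ± 0.025 with 1 µM and 3.71 ± 0.025 with 5 µM, and at day 5 by 2.46 ± 0.025 and 4.15 ± 0.026 (adjusted p = 2.36e-36, 1.97e-46, 3.89e-40 and 1.04e-47, edgeR). Its rise was larger at day 1 with 5 µM than at day 5 with 1 µM, where the replication genes' medians were -0.02 and -0.47. These conditions differ in both dose and duration, and each value is against DMSO of its own day. The relation of CDKN1A to the replication genes was not tested. In the panel CDKN1A rose by 2.18 with olaparib, 1.98 with talazoparib, 0.82 with abiraterone and 0.18 with enzalutamide. With the combinations it rose by 2.70 with Abi and Ola and 2.31 with Enz and Tala. MYBL2, which drives genes of late S phase and G2, was at -2.77 with 5 µM at day 5. RBL1, the RB family protein p107, was at -0.59 with 1 µM at day 5. CDK6, a kinase that phosphorylates RB, was at -1.47 ± 0.12 with abiraterone and -1.08 ± 0.11 with enzalutamide, and CDKN1C at 0.70 ± 0.20 with enzalutamide and 0.74 ± 0.20 with talazoparib.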

How the data were processed

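RNA-seq of 39 C4-2B libraries in 13 groups of 3 was analysed as 2 experiments, a panel of 21 libraries and a time course of 18. The authors trimmed reads with Trim Galore, aligned them with STAR to GRCh38 and quantified genes with Salmon in an nf-core pipeline, and deposited 1 table of unnormalized counts per gene, whole numbers here although Salmon estimates them. Estimates of this kind share reads between near-identical copies of a gene. Of 63187 Ensembl identifiers, 62666 had a symbol in the reference names used, and the 521 without one took 0.120% of the counts. Gene lengths came from a GENCODE release for GRCh38 earlier than that of the counts.

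Genes with low counts were removed by filterByExpr with groups given, and all groups of an experiment were fitted together in edgeR 4.0.16 (R 4.3.3) with TMM scaling and robust quasi-likelihood dispersion. Tests were 2-sided, p-values were adjusted by the Benjamini-Hochberg method over all genes tested, and a call needs an adjusted p under 0.05. Standard errors are the log2 fold change divided by the square root of F. Interactions were contrasts in the same fits. Alternatives were RLE scaling, total-count scaling, no filter, a filter at 1 CPM in 3 libraries, DESeq2 1.42.0, fits of the compared groups alone, a replicate block, and leaving out each library. The pipeline was tested on simulated data.

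The members, the gene lists and the tests were chosen with earlier results of these data known. Values in every library are given for 7 anchor genes (MCM2, CDC45, POLA1, PCNA, RRM2, UHRF1 and E2F1), for up to 2 members that rose most and 2 that fell most among the calls of each comparison with DMSO (where the group with more averaged 100 counts or over), and for the 2 largest terms of each interaction. Genes of the other lists are named where they were among the 3 largest changes. Other members named beside these, such as GMNN, POLE or TK1, were chosen after their values were seen. Counting error is small at these depths, with a lowest member count of 106, and the spread between libraries sets the precision.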

Additional observations from a re-analysis of the deposited data

Results flagged for a closer look

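The results below stand out because an effect differed between days or between drug backgrounds by an interaction term (edgeR's quasi-likelihood test, Benjamini-Hochberg adjusted over all genes). Between day 1 and day 5, the effect of 1 µM olaparib changed the most for CDC45 (-0.65 on the log2 scale) and GINS4 (-0.64). The effect of 5 µM changed the most for CDC45 (-2.91) and MCM10 (-2.90), and the step from 1 to 5 µM for MCM10 (-2.42) and DTL (-2.40).

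E2F7 departed from the sum of its single-drug effects with abiraterone and olaparib (0.47) and with enzalutamide and talazoparib (0.45), and both terms use the same DMSO libraries. WDHD1 departed with the first pair (0.29) and ORC6 with the second (0.40).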

How the results depend on the processing

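In the 7 settings other than leaving out a library, 145 of 147 counts of members called (21 comparisons) stayed within 1.5 times the reported count. With DESeq2, 10 members departed from the sum for abiraterone by olaparib instead of 6, and 23 for enzalutamide by talazoparib instead of 14, and the cause was not tested. Leaving out single libraries gave 0 to 11 for talazoparib against olaparib, 4 to 13 for abiraterone by olaparib and 8 to 26 for enzalutamide by talazoparib, and the other 18 counts stayed within 1.5 times. The balance of higher and lower members turned without DMSO replicate C for enzalutamide (16 higher, 13 lower) and for abiraterone by olaparib (3 positive, 5 negative). Of 91 values of members followed through every setting, none changed sign in any setting and 80 kept their call in every setting. Only values that passed the test as reported were followed, so values near 0 are not among them.

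Replicate labels A to C and 1 to 3 do not say what a number marks, and same-numbered libraries did not deviate together: correlations of their deviations from the group means ran from -0.21 to 0.20 in the panel and from -0.42 to 0.35 in the time course. With a replicate block all 21 counts stayed within 1.5 times and changed by -2 to 2 members, and of the calls named in the text 3 were lost (edgeR): MCM3 with abiraterone and olaparib (adjusted p = 0.0525), POLD2 for enzalutamide by talazoparib (0.0607) and CCNE2 between the days of DMSO (0.0589).

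Total-count scaling moved the share of called genes that were higher, over all genes, from 48.7% to 60.0% with abiraterone, 55.1% to 43.0% with olaparib, 54.5% to 40.0% with talazoparib, 49.5% to 39.7% for olaparib added to abiraterone, 39.8% to 59.9% and 48.0% to 60.3% at day 1 with 1 and 5 µM, 44.6% to 55.0% and 49.6% to 38.7% for the dose step at day 1 and day 5, and 45.3% to 57.7% between the days of DMSO. For the interactions it moved from 42.2% to 56.3% for enzalutamide by talazoparib, and from 52.3% to 37.4%, 49.6% to 33.2% and 47.7% to 28.5% for day by 1 µM, day by 5 µM and day by dose step. For day by 5 µM the median of all genes moved from -0.022 with TMM to -0.15, and the member median from -1.86 to -1.99. With 3 libraries a group, small differences in the panel are uncertain, since its vehicle libraries differed among themselves.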
